A study of Mus musculus with 12 samples.

Results

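Prg4, Svep1, Cthrc1, C1qtnf3, Angptl1 and Pon1 encode secreted proteins and were followed in mouse vessels over 7 days of angiotensin II, a peptide hormone that raises blood pressure and drives remodelling of the arterial wall. The 6 genes were chosen by their time course on these same arrays: Prg4 and Svep1 because they rose by day 1, C1qtnf3, Angptl1 and Pon1 because they rose only between day 3 and day 7, and Cthrc1 as a known marker of remodelling fibroblasts, named without reference to a day. They are 6 of 30827 genes with a single symbol on the array, each measured by 1 transcript cluster (a set of probes against 1 gene), and all 6 were among the 22154 genes tested. Differences that chose a gene, or that share arrays with those, are given below as descriptions without a test. Tests are reported for Cthrc1 in every comparison and for Prg4 and Svep1 at day 7 against day 3.

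Mice were C57BL/6 males of 8 to 10 weeks. The treated groups had received angiotensin II at 1500 ng/kg/min from implanted osmotic pumps for 1, 3 or 7 days, and the day 0 group had received none. Each of the 4 groups had 3 arrays of total RNA, described as biological replicates. Neither the vessel, nor whether a pump or vehicle was given at day 0, nor whether vessels were pooled, is stated in the sources used here. Precision is limited throughout by 3 arrays per group.

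Secreted proteins of the vessel wall come mostly from fibroblasts of the adventitia, the outer layer of an artery, from smooth muscle cells and from infiltrating macrophages. When an artery is injured or its pressure rises, adventitial fibroblasts multiply, lay down collagen and secrete proteins that bind matrix, cell surface receptors or lipoproteins. In RNA from whole vessels, a change in the number of cells of one type and a change in RNA per cell cannot be told apart.

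Values are log2 signals as deposited, and a difference of 1 is a doubling of signal. The middle of the 5222 negative control features lay between 5.91 and 6.14 on the 12 arrays, and a signal at that level cannot be separated from background. Correlations between arrays of a group ran from 0.974 to 0.993. Positive control features exceeded negative ones by 2.59 ± 0.05 on the day 0 arrays, by 2.25 ± 0.29 on those of day 1, by 1.98 ± 0.14 on those of day 3 and by 1.76 ± 0.49 on those of day 7 (SD over 3 arrays). This control gap was smallest, at 1.20, on day 7 replicate 1, which was also the lowest day 7 array for every one of the 6 genes except Angptl1. The mean signals of the fibroblast, smooth muscle, endothelial and macrophage marker lists were above the negative control median on every array. Single markers could be dimmer, such as the macrophage marker Cd68, which averaged 7.23 at day 0.

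Prg4 encodes lubricin (proteoglycan 4), a mucin-like glycoprotein that lubricates joint surfaces and binds the hyaluronan receptor CD44 and Toll-like receptors. Its signal was 6.89, 6.69 and 5.98 on the day 0 arrays, 12.21, 12.73 and 11.09 at day 1, 10.87, 10.84 and 12.90 at day 3, and 8.16, 11.69 and 8.46 at day 7. At day 0 it stood close to background, between the 47.9th and 68.5th percentile of the negative controls, and every treated array was above every day 0 array. The difference of day 1 from day 0 was 5.49 ± 0.93 (log2, SE), and that of day 3 from day 0 was 5.01 ± 0.93. Because the day 0 level is close to background, these differences are relative to background signal rather than to a measured baseline.

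From day 3 to day 7 Prg4 did not pass the test. Its mean was 9.44 ± 1.96 at day 7 and 11.53 ± 1.18 at day 3 (SD over 3 arrays), a difference of -2.10 ± 0.93 with a 95% interval of -4.18 to -0.01 (limma, adjusted p = 0.385). The groups overlapped, since day 7 replicate 2 remained at 11.69 while the other two day 7 arrays were at 8.16 and 8.46. At day 7 Prg4 was 2.92 ± 0.93 above day 0, and 1.79 above it without day 7 replicate 2. The spread among day 7 arrays, 3.53 between the highest and the lowest, was the widest of any gene and day among the 6.

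Svep1 encodes polydom, a large extracellular matrix protein that binds integrin alpha9 beta1 and is needed for lymphatic vessel formation in mice. Its signal was 9.39, 8.58 and 8.97 at day 0, 11.85, 12.15 and 11.38 at day 1, 11.61, 12.08 and 12.00 at day 3, and 9.26, 10.21 and 10.08 at day 7. Unlike Prg4 it was clearly measured at day 0, above the 90.3rd percentile of the negative controls on all 3 arrays. The difference of day 1 from day 0 was 2.81 ± 0.30, and that of day 3 from day 0 was 2.92 ± 0.30, with no overlap between treated and untreated arrays in either.

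Svep1 then fell between day 3 and day 7. Svep1 signals averaged 9.85 ± 0.52 at day 7 and 11.90 ± 0.25 at day 3 (SD over 3 arrays), a difference of -2.05 ± 0.30 with a 95% interval of -2.73 to -1.37 (limma, adjusted p = 0.0307), and the 3 arrays of day 7 lay below the 3 of day 3. In that comparison 0.153% of all tested genes were called lower (34 genes) and 0.113% higher (25 genes), so a call was rare. Day 7 and day 0 overlapped, at a difference of 0.87 ± 0.30. The fall kept its size but missed the threshold in several fits: adjusted p = 0.0726 without day 0 replicate 3, 0.054 without day 1 replicate 1, and 0.0779, 0.156 and 0.151 without day 3 replicates 1, 2 and 3. It was also past 0.05 with the replicate number as a block (0.0598), with adipocyte markers as a covariate (-1.75, 0.0802) and in a fit of the 6 arrays alone (0.266).

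**Figure D1:**
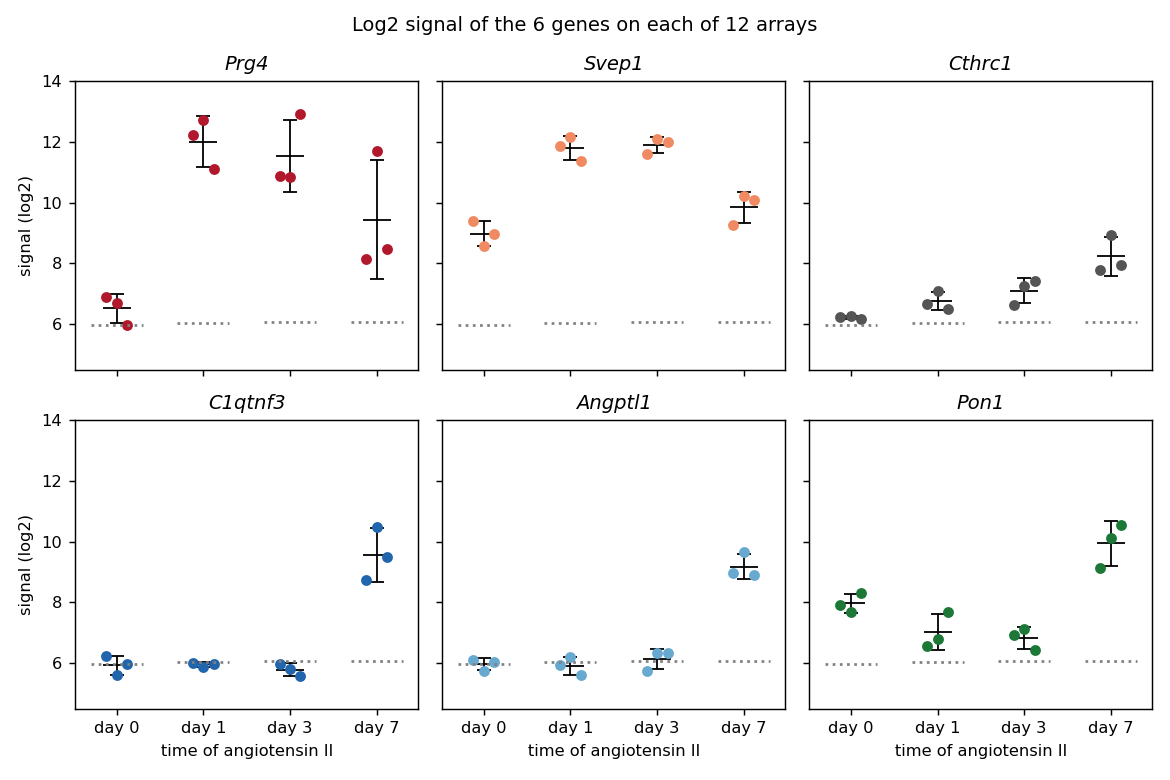
Log2 signal (y axis) of the 6 genes on each of the 12 arrays by days of angiotensin II (x axis). Points are arrays, black bars the group mean ± SD (n = 3), dotted lines the median of the group's negative control medians. Prg4 and Svep1 are high at days 1 and 3, C1qtnf3 and Angptl1 leave the dotted line at day 7 and at no earlier day, and Pon1 dips at days 1 and 3 below its day 0 level.

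Cthrc1, collagen triple helix repeat containing 1, is secreted by activated fibroblasts and was first described in injured rat arteries. Its signal was 6.22, 6.26 and 6.17 at day 0, 6.68, 7.10 and 6.50 at day 1, 6.64, 7.26 and 7.42 at day 3, and 7.79, 8.95 and 7.95 at day 7. Each day's mean was above the one before, but days 1 and 3 overlapped, and the first 3 groups were dim, at most at the 73.6th percentile of the negative controls, so that differences from day 0 start close to background. At day 7 the arrays were between the 78.7th and the 90.1st percentile.

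Cthrc1 rose by day 7. It averaged 8.23 ± 0.63 at day 7 and 6.22 ± 0.05 at day 0 (SD over 3 arrays), a difference of 2.02 ± 0.31 with a 95% interval of 1.32 to 2.71 (limma, adjusted p = 0.00316), in a comparison where 12.1% of genes were called higher and 13.1% lower. With the control gap as a covariate the difference was 2.24, with an adjusted p of 0.0521. At day 1 the difference from day 0 was 0.54 ± 0.31 (adjusted p = 0.463), where 1.97% of genes were called higher and 1.63% lower, and at day 3 it was 0.89 ± 0.31 (adjusted p = 0.0977), where 4.57% were called higher and 7.09% lower. Neither passed the threshold, although no treated array overlapped day 0. The day 3 value did pass in a fit of the 6 arrays compared (adjusted p = 0.0403) and without day 7 replicate 2 (0.0346). With the adipocyte marker mean as a covariate it was 0.40 (adjusted p = 0.964) and the day 1 value 0.03 (adjusted p = 1).

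Between the treated days Cthrc1 was not called. Day 7 exceeded day 3 by 1.13 ± 0.31 (95% interval 0.44 to 1.82, adjusted p = 0.170), and those 2 groups did not overlap. Day 3 exceeded day 1 by 0.35 ± 0.31 (95% interval -0.35 to 1.04, adjusted p = 0.664). No gene passed at day 3 against day 1 by limma, 0% higher and 0% lower, while 1780 of 22154 had an unadjusted p under 0.05.

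C1qtnf3 encodes CTRP3, a secreted protein of the C1q and TNF related family to which adiponectin also belongs. Its signal was 6.23, 5.60 and 5.96 at day 0, 6.02, 5.88 and 5.99 at day 1, 5.98, 5.81 and 5.57 at day 3, and 8.73, 10.49 and 9.48 at day 7. On days 0, 1 and 3 it was not distinguishable from background, between the 38.4th and 55.5th percentile of the negative controls, and on day 7 it was between the 87.8th and 95.7th. The difference of day 7 from day 3 was 3.78 ± 0.36. As the day 3 signal is background, this is a difference from background and not from a measured level. It ran from 3.32 to 4.20 when any 1 of the 12 arrays was left out.

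Angptl1 encodes a secreted angiopoietin-like protein described as an inhibitor of new vessel growth. Its signal was 6.12, 5.75 and 6.04 at day 0, 5.93, 6.20 and 5.60 at day 1, 5.75, 6.32 and 6.33 at day 3, and 8.97, 9.67 and 8.90 at day 7. It too was at background through day 3, between the 39.1st and 55.3rd percentile of the negative controls. The difference of day 7 from day 3 was 3.05 ± 0.25, again a difference from background, and the 3 day 7 arrays were the closest together of the late genes, within 0.77.

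Pon1 encodes paraoxonase 1, an enzyme carried by high-density lipoprotein and made mainly in the liver. Its signal was 7.91, 7.69 and 8.32 at day 0, 6.57, 6.81 and 7.70 at day 1, 6.94, 7.13 and 6.43 at day 3, and 9.13, 10.13 and 10.56 at day 7. Of the 3 late genes it alone had a measurable level at day 0, between the 82.6th and 86.4th percentile of the negative controls. It was dimmer at day 1, between the 61.1st and 78.2nd percentile, and at day 3, between the 56.6th and 70.3rd. Its rise from day 3 to day 7 therefore starts close to background. Its difference from day 0 was -0.94 ± 0.40 at day 1, with 1 array overlapping day 0, and -1.14 ± 0.40 at day 3, without overlap. The difference of day 7 from day 3 was 3.11 ± 0.40, and that of day 7 from day 0 was 1.97 ± 0.40. With the control gap as a covariate the day 7 difference from day 0 was 3.27 and the day 3 difference -0.19.

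**Figure D2:**
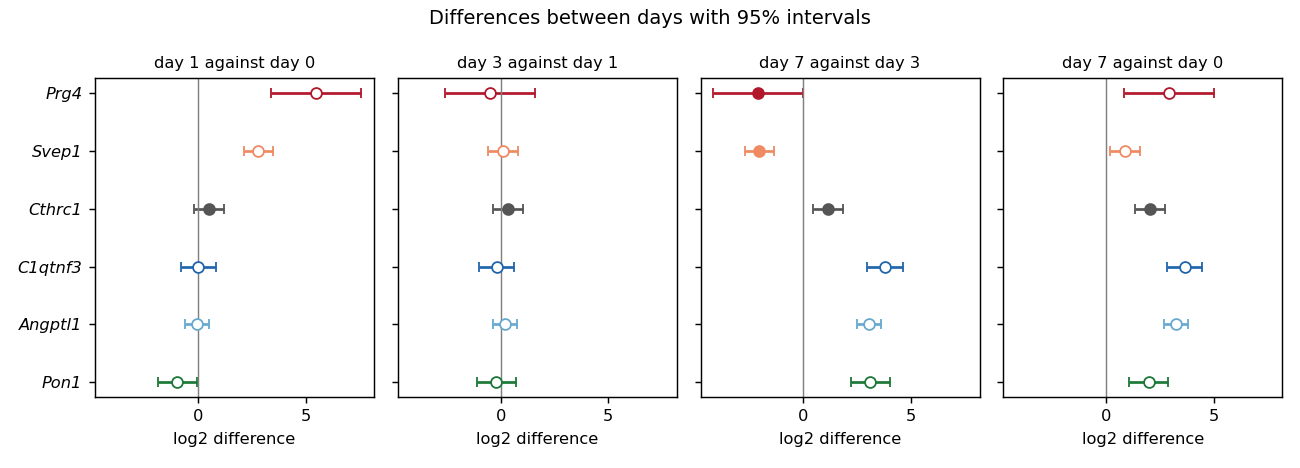
Differences between days (x axis, log2) for the 6 genes (y axis) with 95% intervals from limma, 1 panel per comparison; filled points were tested and open points are descriptions. Svep1 lies below 0 at day 7 against day 3, at -2.05, while C1qtnf3, Angptl1 and Pon1 lie between 3.05 and 3.78.

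The 3 late genes and Svep1 have a start region in RefSeq (build GRCm38.p6), shown here because C1qtnf3, Angptl1 and Pon1 were all higher at day 7 than at day 3 while Svep1 was falling. Each stretch is 300 bases on the gene's own strand, 5′ to 3′, from 250 before to 50 after the start. Capitals mark the motifs searched, on both strands: the TATA box as TATAAA, the AP-1 site as TGANTCA, the TEAD site as GGAATG, the core of the cAMP response element as TGACGT, and the CArG box of serum response factor. None of these overlaps another here. C1qtnf3 is at chr15:10952082-10952381 (+), Angptl1 at chr1:156838773-156839072 (+), Pon1 at chr6:5193897-5194196 (-) and Svep1 at chr4:58206547-58206846 (-).
C1qtnf3: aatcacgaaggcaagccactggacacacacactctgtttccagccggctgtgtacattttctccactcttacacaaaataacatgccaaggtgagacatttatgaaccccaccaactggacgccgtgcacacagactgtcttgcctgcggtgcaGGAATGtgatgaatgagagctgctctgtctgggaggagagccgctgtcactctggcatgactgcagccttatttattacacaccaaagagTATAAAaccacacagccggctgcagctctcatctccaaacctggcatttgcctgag
Angptl1: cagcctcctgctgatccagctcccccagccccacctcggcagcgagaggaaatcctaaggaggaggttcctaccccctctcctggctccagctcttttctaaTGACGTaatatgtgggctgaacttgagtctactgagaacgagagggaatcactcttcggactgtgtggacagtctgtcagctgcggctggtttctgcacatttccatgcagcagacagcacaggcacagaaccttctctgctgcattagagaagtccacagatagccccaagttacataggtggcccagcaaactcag
Pon1: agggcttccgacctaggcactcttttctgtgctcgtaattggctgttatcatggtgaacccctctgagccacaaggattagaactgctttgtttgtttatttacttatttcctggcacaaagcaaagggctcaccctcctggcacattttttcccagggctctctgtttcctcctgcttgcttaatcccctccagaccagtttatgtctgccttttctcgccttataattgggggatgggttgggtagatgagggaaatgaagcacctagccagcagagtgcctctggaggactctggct
Svep1: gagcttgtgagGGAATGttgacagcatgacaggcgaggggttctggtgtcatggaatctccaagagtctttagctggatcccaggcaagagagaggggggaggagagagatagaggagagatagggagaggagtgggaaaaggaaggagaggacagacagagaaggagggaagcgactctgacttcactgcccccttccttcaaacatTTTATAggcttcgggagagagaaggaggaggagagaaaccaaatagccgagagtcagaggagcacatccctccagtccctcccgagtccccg

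C1qtnf3 has a TATA box whose first base lies at -6 and a TEAD motif at -96, and Svep1 has a TATA box on the opposite strand at -42 and a TEAD motif at -239. These were the only motifs found in more than 1 of the 4 stretches. Angptl1 has the cAMP response core at -148 alone, and in Pon1 no letters of the 5 motifs were found. Over 32851 mouse promoters of the same length, 13.6% hold the TATA box, 14.7% the TEAD site, 7.51% the cAMP response core, 7.81% the AP-1 site and 1.63% a CArG box. A match describes these letters only.

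On the 12 arrays the 6 genes fell into an early pair and a late trio, which the choice of genes fixes. Prg4 and Svep1 had a Pearson r of 0.906, C1qtnf3 and Angptl1 of 0.971, C1qtnf3 and Pon1 of 0.903 and Angptl1 and Pon1 of 0.850 (n = 12 arrays, which share 4 time points). Cthrc1, placed in neither set, ran with the late genes, at 0.893 with Angptl1, 0.841 with C1qtnf3 and 0.599 with Pon1, against 0.380 with Prg4 and 0.111 with Svep1. Pon1 and Svep1 ran in opposite directions, at -0.585.

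**Figure D3:**
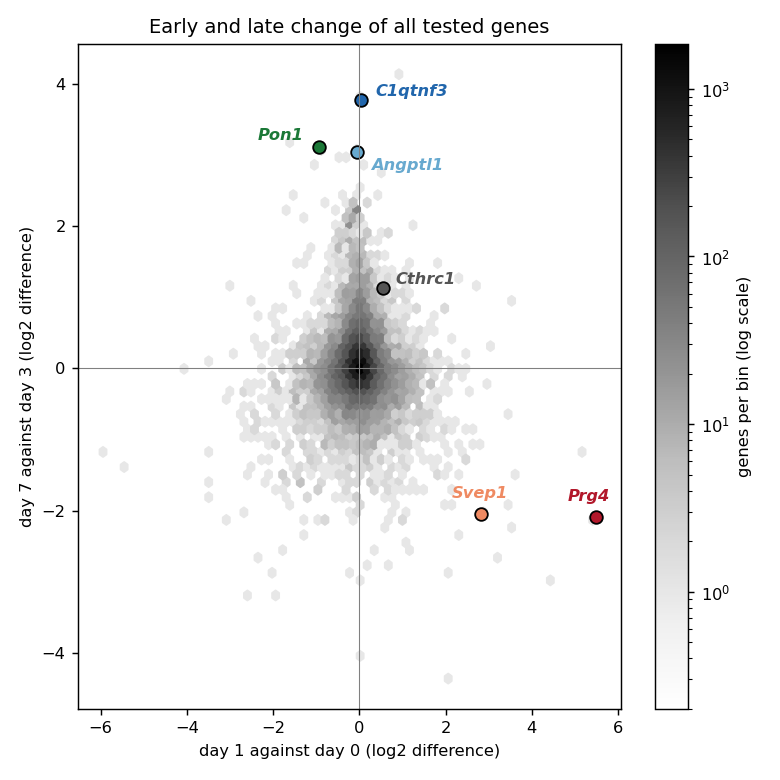
Each tested gene by its day 1 against day 0 difference (x axis, log2) and its day 7 against day 3 difference (y axis, log2), which share no arrays; grey shading is the number of genes per bin on a log scale. Prg4 and Svep1 sit at the lower right, C1qtnf3, Angptl1 and Pon1 at the top near or left of 0 on the x axis, and Cthrc1 near the bulk at 0.54 and 1.13.

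Svep1 was 1 of 10 genes called higher at day 1 against day 0 and lower at day 7 against day 3, which is 2.29% of the 437 early calls and 29.4% of the 34 late ones. Its early call was fixed by how it was chosen. The others, listed after their values were seen, were Alpl, Dnmt1, Esm1, Gas7, Lyve1, Mmp3, Ptch1, Tgfb1 and Wfdc17. Their calls depended on the fit, as given under other observations. Prg4 was not among them, because its late difference did not pass. Clu alone was called lower at day 1 and higher at day 7 against day 3, a pattern that Pon1 also traces in its values.

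The genes whose signals most resembled each member over the 12 arrays were sought among all tested genes with established symbols. For Prg4 they were Mrc1 (r = 0.963), Serpina3n (0.960), Jam2 (0.959), Jpt2 (0.955) and Cd68 (0.955), of which Mrc1 and Cd68 are macrophage genes. For Svep1 they were Mmp3 (0.986), F13a1 (0.970), Nek6 (0.970), Mrc1 (0.969) and Lmnb1 (0.965). Mmp3, a matrix-degrading protease, differed by 3.17 at day 1 from day 0 and by -2.68 at day 7 from day 3, the same shape as Svep1 with larger steps.

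For Cthrc1 the nearest were Lamb1 (0.965), Phf11a (0.961), Cdh2 (0.961), Mmp14 (0.960) and Nav3 (0.956), all higher at day 7 than at day 0, by 0.70 to 2.05. C1qtnf3 and Angptl1 shared Aspn, a small leucine-rich matrix proteoglycan (0.958 and 0.963), and Myh6, a cardiac myosin heavy chain (0.945 and 0.972). C1qtnf3 also had Ttn (0.968), Slamf7 (0.951) and Ssc5d (0.946), and Angptl1 had Itm2a (0.967), the fibroblast protease gene Fap (0.957) and Pla1a (0.954). Aspn had the largest difference of day 7 from day 3 among all genes, 4.13. For Pon1 the nearest were Apoe (0.968), the matrix gene Thbs2 (0.940), Abtb1 (0.939), Car5b (0.933) and Mindy1 (0.930).

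Marker lists moved with both sets. The mean signal of 6 macrophage markers was 7.92 to 8.27 on the day 0 arrays, 9.77 to 10.57 at day 1, 9.64 to 10.47 at day 3 and 9.14 to 10.33 at day 7, and 5, 6 and 5 of the 6 were called higher at days 1, 3 and 7 against day 0, where 1.97%, 4.57% and 12.1% of all genes were. The list's mean was still above its day 0 range at day 7, when Svep1 was falling, but its members differed. At day 7 against day 3 none of the 6 was called in limma (1 with an unadjusted p under 0.05), and their median difference was -0.14. Mrc1 differed by -1.90 and Cd68 by -0.72 in that comparison, while Adgre1 differed by 0.14. The part of macrophages in the early rise of Prg4 and Svep1 was not tested. All 6 mesothelial markers, for the lining cells of body cavities, a known source of Prg4, were below the negative control median on every day 0 array, and all but Upk1b were below it on every later array.

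White adipocyte markers were not called at the early days, while some brown markers were called lower. None of 6 white markers was called at day 1 or day 3 against day 0 in limma (1 and 3 with an unadjusted p under 0.05). Of 5 tested brown markers 1 was called lower at day 1 (Ucp1, -5.45 ± 1.27, adjusted p = 0.0496) and 2 at day 3 (Cox7a1 and Cox8b). The shares of all genes called lower were 1.63% and 7.09%. On each of these days 4 of the 5 brown markers had an unadjusted p under 0.05, and the brown list's median difference was -1.11 and -1.20. The white list's mean was 9.02 to 10.49 at day 1, overlapping 9.94 to 10.32 at day 0, while the brown list's mean was 6.45 to 7.24 at day 1, below 8.14 to 8.48 at day 0. The mean of the 11 tested white and brown adipocyte markers was 9.54 to 9.76 at day 0, 7.99 to 9.26 at day 1, 8.63 to 8.64 at day 3 and 8.85 to 9.32 at day 7. This mean was lower on every treated array than on any day 0 array, so as a covariate it overlaps with treatment. A call lost with it cannot be assigned to either. With that mean as a covariate, the day 1 against day 0 difference was 3.59 ± 1.39 for Prg4, 2.20 ± 0.46 for Svep1 and -0.31 ± 0.64 for Pon1. The day 7 against day 3 difference of Pon1 was 2.79 ± 0.46 in the same fit.

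At day 7, when the late genes were at their highest, fibroblast markers were at their highest and smooth muscle markers at their lowest. The 5 fibroblast markers averaged 15.49 to 16.28 on the day 7 arrays, against 14.82 to 15.15 at day 3 and 13.55 to 14.65 at day 0, and 3 of 5 were called higher at day 7 against day 0. All 5 are counted again in the fibroblast lists below. Col1a1 and Col1a2 are in the remodelling list, and Dcn, Lum and Dpt in the resting list. The 6 smooth muscle markers averaged 9.99 to 13.37 at day 7, against 13.19 to 14.52 at day 3 and 15.94 to 16.20 at day 0, and all 6 were called lower at day 7 against day 0. Skeletal muscle markers averaged 5.85 to 6.69 at day 7 and 5.55 to 5.95 at day 0, with 4 of 5 tested called higher. At day 7 against day 0, 12.1% of all genes were called higher and 13.1% lower. For Pon1, 4 of 6 hepatocyte markers (Alb, Ttr, Fgb and Apoa2) were below the negative control median on all 12 arrays. Of the 4 tested, 2 of these dim genes were called higher at day 7 against day 0, Alb by 0.43 ± 0.13 (limma, adjusted p = 0.0426) and Fgb by 0.41 ± 0.13 (0.0491), while Ahsg (-0.31 ± 0.30) and the bright Cyp2e1 (0.39 ± 0.52), which adipose tissue also expresses, were not. The hepatocyte list's mean was 7.40 to 7.55 at day 7 and 7.16 to 7.25 at day 0. The part of the other lists in the day 7 values was not tested.

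**Figure D4:**
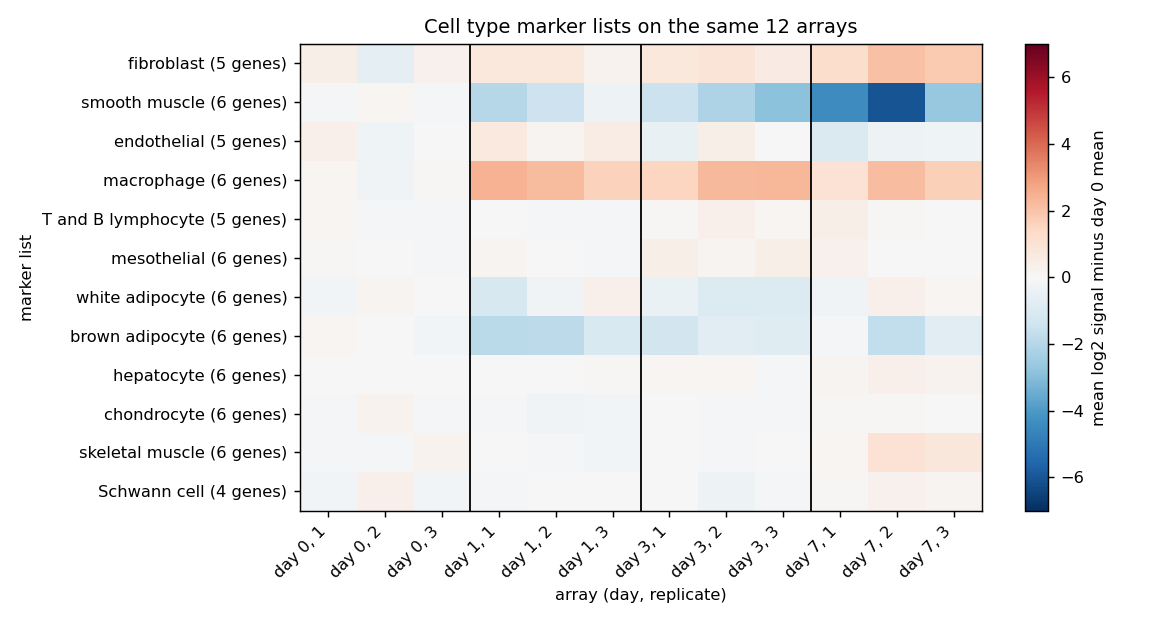
Mean log2 signal of each cell type marker list (rows) on each array (columns), minus that list's day 0 mean; red is higher and blue lower. Macrophage lists are red from day 1 onward, and at day 7 the fibroblast list is red and the smooth muscle list blue, most strongly on replicate 2, where its mean is 9.99.

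Remodelling fibroblast genes, a list of collagens, matrix proteins and regulators that does not hold the 6 genes, were called higher at all 3 treated days. Of 18 tested, 6 were called higher and none lower at day 1 against day 0 (8 with an unadjusted p under 0.05 in limma), 7 higher and 1 lower at day 3, and 14 higher and none lower at day 7 (15 unadjusted). The background shares called higher were 1.97%, 4.57% and 12.1%. The list's median difference was 0.42, 0.43 and 1.68, where the median of all genes was 0.01, 0.08 and 0.10. When any 1 array was left out, the number called in either direction was 2 to 7 at day 1, 2 to 9 at day 3 and 12 to 15 at day 7. Across all the lists, none of the 11 genes named below as called at day 1 or the 15 at day 3 kept their call with the adipocyte covariate, while 19 of 24 at day 7 against day 0 did. That covariate separates day 0 from every treated array, so these losses cannot be assigned to adipocytes or to treatment. With the control gap as a covariate 9 of the 11, 5 of the 15 and 9 of the 24 kept it.

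Within that list some genes were called by day 1 and others not until day 7. Lox, the collagen cross-linking enzyme, rose at day 1 by 2.59 ± 0.36 (limma, adjusted p = 0.00935), Col12a1 by 3.57 ± 0.61 (0.0187), Col8a1 by 2.79 ± 0.45 (0.0158) and Col5a2 by 1.68 ± 0.33 (0.0275). Col12a1, Col8a1 and Col5a2 were still called at day 7 against day 0, at 3.90, 3.29 and 2.12. Col8a1 averaged 5.595 at day 0, lower than every array's negative control median, so its differences from day 0 start at background. Col1a1, the main fibrillar collagen, was not called at day 1 (0.59 ± 0.32, adjusted p = 0.427) and rose at day 7 by 2.12 ± 0.32 (adjusted p = 0.00287), though after quantile normalization the value was 1.15 (0.128). Fap was the single gene of the list called at day 7 against day 3, by 1.63 ± 0.21 (adjusted p = 0.0202), the contrast that defines the late trio. That call was lost in a fit of the 6 arrays alone and without day 3 replicate 1 or 3. Postn, which encodes periostin and was named after its value was seen, fell by 1.40 at day 3 against day 0 (SE 0.36, adjusted p = 0.0353, and 0.0843 after quantile normalization).

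Genes of resting adventitial fibroblasts were called in both directions. Of 19 tested, none were called higher and 2 lower at day 1 against day 0 (9 with an unadjusted p under 0.05 in limma), 3 higher and 2 lower at day 3, and 4 higher and 3 lower at day 7. The shares of all genes called higher and lower were 4.57% and 7.09% at day 3 and 12.1% and 13.1% at day 7, so the day 7 counts lower are near the background. Lum and Col14a1, which encode proteins of collagen fibrils, rose at day 7 by 3.10 ± 0.45 (adjusted p = 0.00268) and 1.88 ± 0.32 (0.00469, and 0.0623 after quantile normalization). Sema3c, a secreted semaphorin, fell at day 7 by 3.00 ± 0.27 (adjusted p = 0.000603), and Gsn, the actin-severing protein gelsolin, by 2.15 ± 0.39 (0.00626). With the control gap as a covariate Lum (3.10, 0.0644), Col14a1 (2.17, 0.0590) and Gsn (-1.09, 0.233) were not called, and Sema3c was (-2.44, 0.0188). The list's median was 0.50, 0.41 and 0.10 at days 1, 3 and 7.

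**Figure D5:**
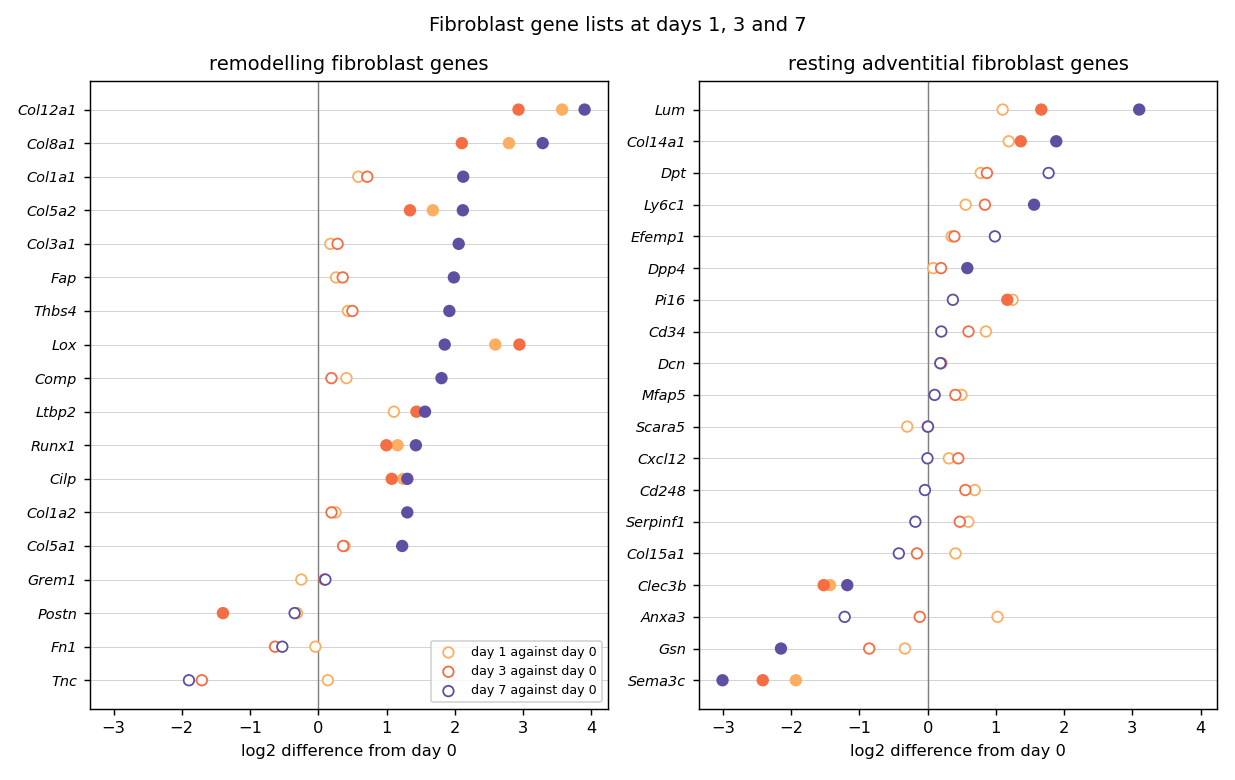
Log2 difference from day 0 (x axis) of each tested gene of the remodelling and the resting adventitial fibroblast lists (y axis); filled points passed an adjusted p of 0.05 in limma, open points did not. In the remodelling list 14 of 18 genes are filled at day 7, all right of 0, while the resting list has filled points on both sides.

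Receptors and partners of Prg4 and Svep1 moved in part, early and late. Of 11 tested, 2 were called higher and none lower at day 1 against day 0 (3 with an unadjusted p under 0.05 in limma): Cd44, by 1.56 ± 0.34 (adjusted p = 0.0411), and the hyaluronan synthase gene Has1, by 1.27 ± 0.27 (0.0361). Has1 averaged 6.13 at day 0, so its rises start close to background. At day 3 the counts were 1 higher and 1 lower, and at day 7 1 higher and 3 lower. The shares of all genes called higher and lower were 1.97% and 1.63% at day 1, 4.57% and 7.09% at day 3, and 12.1% and 13.1% at day 7. At day 3 Has1 was still higher, by 1.22 ± 0.27 (adjusted p = 0.0215), and Itga9, which encodes the alpha9 chain of the Svep1 receptor, had fallen by 2.10 ± 0.58 (0.0466). At day 7 Itga9 differed from day 0 by -3.92 ± 0.58 (adjusted p = 0.00286), its beta1 partner Itgb1 by -2.52 ± 0.38 (0.00305), Tlr4 by -0.62 ± 0.20 (0.0490) and Has2 by 0.59 ± 0.16 (0.0269). Median centring ended the calls of Cd44 (0.0567) and Has2 (0.0634), and quantile normalization those of Has2 (0.0526) and of Itga9 at day 3 (0.0600). With the control gap as a covariate Itgb1 (-1.21, 0.0486) was the 1 day 7 call kept, while Itga9 (-2.83, 0.111), Tlr4 (-0.39, 0.563) and Has2 (0.05, 0.828) lost theirs, as did Itga9 (-1.30, 0.372) and Has1 (0.90, 0.1996) at day 3 and Has1 at day 1 (1.09, 0.0692). These falls accompany the fall of the smooth muscle markers, whose part in them was not tested. The median of the list at day 7 was -0.15.

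Partners of Cthrc1 in the Wnt planar cell polarity pathway, which orients cells and acts through Frizzled and Ror receptors and the small GTPases RhoA and Rac1, were called in both directions at day 7. Of 14 tested, 5 were called lower and 1 higher at day 7 against day 0, where 13.1% of all genes were called lower and 12.1% higher, and the median was -0.14. The differences were -1.62 ± 0.28 for Ror1 (limma, adjusted p = 0.00484), -1.01 ± 0.31 for Rhoa (0.0425), -0.75 ± 0.19 for Rac1 (0.0215) and -0.63 ± 0.11 for Fzd5 (0.00445). Ror2, the 1 gene higher, rose by 0.45 ± 0.12 (adjusted p = 0.0247), but was not called after quantile normalization (0.16, 0.408) or median centring (0.17, 0.372), and was named after its value was seen. With the control gap as a covariate none of the 4 named falls was called, and Rhoa turned to 0.08 (adjusted p = 0.864). At day 3 Fzd5 alone was called, at -0.65 ± 0.11 (adjusted p = 0.00773). Fzd5 averaged 6.06 at day 3 and 6.08 at day 7, so both of its falls end close to background.

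Among 8 other C1q and TNF related genes, 3 were called higher and 1 lower at day 7 against day 0, where the shares of all genes were 12.1% and 13.1%. They were C1qtnf9, by 1.25 ± 0.20 (limma, adjusted p = 0.00366), Adipoq, the gene of adiponectin, by 1.17 ± 0.35 (0.0389), C1qtnf6, by 0.79 ± 0.13 (0.00431), and the lower C1qtnf2, by -0.47 ± 0.14 (0.0360). None was called at day 7 against day 3 in limma (4 of 8 with an unadjusted p under 0.05), where C1qtnf3 differed by 3.78. C1qtnf7 was called higher at day 1, by 0.88 ± 0.20 (adjusted p = 0.0443), and C1qtnf2 lower at day 3, by -0.52 ± 0.14 (0.0401). At day 0 C1qtnf9 averaged 6.01 and C1qtnf6 6.16, so the rises of both start close to background. Adipoq missed the threshold after quantile normalization (0.90, 0.1003) and after centring (0.89, 0.0983), and C1qtnf2 and C1qtnf7 after quantile normalization (0.0676 for C1qtnf2 at day 7 and 0.112 at day 3, 0.0760 for C1qtnf7).

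Among 8 other angiopoietins, angiopoietin-like genes and their receptors, Angptl7 alone was called. It rose by 2.37 ± 0.39 at day 1 (limma, adjusted p = 0.0164) and by 2.16 ± 0.39 at day 3 (0.0113) against day 0, the days on which Angptl1 was at background. None was called at day 7 against day 0 in limma (3 of 8 with an unadjusted p under 0.05), and the median of the list was -0.22, where Angptl1 differed by 3.21.

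Among 10 tested genes of paraoxonases and high-density lipoprotein, 3 were called higher and none lower at day 7 against day 3 (6 with an unadjusted p under 0.05 in limma): Clu, by 2.20 ± 0.31 (adjusted p = 0.0228), Apoe, by 1.42 ± 0.18 (0.0186), and Apoc1, by 1.29 ± 0.18 (0.0228). The background share called higher in that comparison was 0.113%, and the list's median was 0.66. With Fap, these 3 make 4 list genes called at day 7 against day 3. None of the 4 kept the call in a fit of the 6 arrays alone, or without day 3 replicate 1 or 3. Only 1 of the 4 kept it with the adipocyte covariate, and 1 without day 3 replicate 2. Clu, which encodes the extracellular chaperone clusterin, had fallen by 1.67 ± 0.31 at day 1 (adjusted p = 0.0234) and 1.99 ± 0.31 at day 3 (0.00646) against day 0. At day 7 against day 0 Abca1 was higher by 0.95 ± 0.20 (adjusted p = 0.0116), Apoc1 by 0.89 ± 0.18 (0.00923) and Apoe by 0.84 ± 0.18 (0.0116). After quantile normalization Apoe was not called at day 7 against day 0 (0.57, 0.0791) or day 3 (1.15, 0.0555), and after centring neither Apoe (0.57, 0.0806) nor Abca1 (0.67, 0.0684) was called against day 0. The 2 other paraoxonases were not called at day 7 against day 3, Pon3 at 0.55 ± 0.24 (adjusted p = 0.385) and Pon2 at -0.27 ± 0.14 (0.469).

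The nearest tested protein-coding genes on either side of each member were called about as often at day 7 as all genes. Genes that were not tested were passed over, so a neighbour here need not be adjacent. Of 12 neighbours, 1 was called higher and none lower at day 1 against day 0 in limma, where 1.97% of all genes were called higher and 1.63% lower. At day 3, 2 were higher (Lpar1 and Rai14) and 1 lower (Ppp1r9a), where the shares were 4.57% and 7.09%. At day 7, 2 were higher and 1 lower, where the shares were 12.1% and 13.1%. None of the 3 calls at day 3 or the 3 at day 7 was kept with the adipocyte covariate or with the control gap. The 1 call at day 1 was lost with the adipocyte covariate and kept with the control gap. Ptgs2, the inducible cyclooxygenase gene and a neighbour of Prg4 in this sense, fell by 3.47 ± 0.72 at day 7 (adjusted p = 0.0105, and 0.255 with the control gap as a covariate). Rai14, a neighbour of C1qtnf3, rose by 0.74 ± 0.13 at day 1 (adjusted p = 0.0223) and 0.58 ± 0.13 at day 7 (0.0162), though not after median centring at day 7 (0.30, 0.140). Ralgps2, a neighbour of Angptl1, differed by 0.23 ± 0.07 at day 7 (adjusted p = 0.0428), and by -0.05 after quantile normalization and -0.04 after centring, so its direction is not settled. Pon3, a neighbour of Pon1, was the nearest relative among them, and these neighbours were named after their values were seen. Neighbours come from RefSeq gene order in GRCm38.p6.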

How the data were processed

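Total RNA of 12 vessel samples, 3 at each of days 0, 1, 3 and 7, was measured on Affymetrix arrays. The values are log2 signals as the authors deposited them, and the submitters' processing notes name Affymetrix Expression Console, without its version, settings or genome build. The labels name an older array design, while the 72688 feature identifiers are transcript clusters of another design, so the table's own annotation was used. Of 65956 transcript clusters, 31388 had 1 symbol, 1362 several and 33206 none, and the last 2 kinds were left out. Symbols of 1611 clusters were updated through Entrez identifiers to RefSeq. Each gene took its brightest cluster, and genes with at least 3 of 12 arrays at or above the 40th percentile (5.25) were tested.

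All 12 arrays entered one fit in limma 3.58.1 (R 4.3.3), with a mean per group, empirical Bayes without trend, and Benjamini-Hochberg adjustment over all 22154 genes, called at an adjusted p under 0.05. Every adjusted p in the text comes from limma. The fit was tested on simulated data. The members, gene lists and tests were chosen with earlier results of these data known, and the early and late rises support nothing independently. Named genes come from the 6 members, up to 4 called genes of each list with the largest change per comparison, and the 5 genes most correlated with each member, passing over predicted genes and small RNAs. Others are named as exceptions. Start regions were found for 4 of the 6 members. Alternatives were quantile normalization, median centring, no or a stricter filter, a mean over a gene's clusters, a variance trend, the replicate number as a block, the 6 arrays compared alone, adipocyte markers or the control gap as a covariate, and leaving out each array.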

Additional observations from a re-analysis of the deposited data

How the results depend on the processing

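No tested member reversed its direction under any alternative. The call of Svep1 at day 7 against day 3 (-2.05) was lost with the replicate block (-2.05, adjusted p = 0.0598), in the 6 arrays compared (-2.05, 0.266) and with the adipocyte covariate (-1.75, 0.0802), and ran from -2.23 to -1.75 over left-out arrays (adjusted p 0.0225 to 0.156). That of Cthrc1 at day 7 against day 0 was lost with the control gap as a covariate (2.24, 0.0521) and ran from 1.66 to 2.24 over left-out arrays. Its day 3 value passed in the 6 arrays compared (0.89, 0.0403) and without day 7 replicate 2 (0.89, 0.0346), over a range of 0.73 to 1.12. Genes called at day 1 against day 0 numbered 798, but 434 after quantile normalization, 437 after median centring, 216 in the 6 arrays compared and 0 with the adipocyte covariate (limma), and 97 to 1093 over left-out arrays. At day 3 they numbered 2583, but 4530 in the 6 arrays compared, 2 with the adipocyte covariate and 466 with the control gap, and 703 to 3506 over left-out arrays. At day 7 they numbered 5594, but 2731, 1755 and 776 in the same settings, and 2853 to 7513. At day 3 against day 1 there were 0 (limma, 1780 unadjusted), with 0 to 1 over left-out arrays. At day 7 against day 3 there were 59, but 108 after quantile normalization, 91 with the stricter filter, 1 in the 6 arrays compared, 31 with the adipocyte covariate and 380 with the control gap, and 10 to 280 over left-out arrays. Causes were not tested.

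Scaling moved the share of calls that were higher: at day 1 it was 54.8%, but 66.4% after centring, at day 3 39.2%, but 23.0% after centring, at day 7 48.0%, but 20.9% after centring and 23.5% after quantile normalization, and at day 7 against day 3 42.4%, but 29.4% after centring and 32.4% after quantile normalization. The median of all genes at day 7 against day 0 was 0.10 as deposited, -0.18 after centring and -0.10 after quantile normalization, and the day 7 against day 0 differences of all 6 members stayed positive under both. Replicate numbers are shared between groups in the labels, but same-numbered arrays correlated from -0.51 to 0.66, with 7 of 18 pairs over 0.1, so they were not treated as pairs; with the block 822, 2794, 5796, 0 and 79 genes were called in the 5 comparisons. No paired call other than that of Svep1 changed among the members. Dim signals limit C1qtnf3, Angptl1 and Cthrc1 through day 3, Prg4 at day 0, and Pon1 at days 1 and 3. Differences that start from those groups start at or close to background.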

Other observations

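Genes that shared the shape of Svep1, up by day 1 and down between day 3 and day 7, spanned several cell types. Esm1, an endothelial proteoglycan, rose by 4.48 ± 0.38 at day 1 against day 0 (log2 and SE, limma, adjusted p = 0.00142) and differed by -2.94 ± 0.38 at day 7 against day 3 (0.0191). Its day 0 mean was 6.15, so the rise starts close to background. Lyve1, a hyaluronan receptor of lymphatic endothelium and some macrophages, rose by 2.05 ± 0.28 (adjusted p = 0.00935) and then differed by -2.84 ± 0.28 (0.00696), to 7.85 ± 0.22 at day 7, against 8.40 ± 0.31 at day 0 (SD, n = 3 each). Mmp3 rose by 3.17 ± 0.32 (adjusted p = 0.00278) and then differed by -2.68 ± 0.32 (0.0151). Smaller steps of the same kind were seen for the DNA methyltransferase Dnmt1, at 0.91 ± 0.11 (adjusted p = 0.00552) and -0.72 ± 0.11 (0.0355), and for the growth factor Tgfb1, at 0.34 ± 0.07 (0.0327) and -0.43 ± 0.07 (0.0458). After median centring Tgfb1 was called in neither comparison (0.394 and 0.171), and Dnmt1 not at day 7 against day 3 (0.0987). Ptch1 missed the threshold at day 1 after quantile normalization (limma, adjusted p = 0.0728) and after centring (0.306), and Tgfb1 after quantile normalization (0.0825).

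Egr1, an immediate early transcription factor, was the 1 gene called lower in both comparisons, by -0.99 ± 0.19 at day 1 against day 0 (limma, adjusted p = 0.0259) and by -1.31 ± 0.19 at day 7 against day 3 (0.0255). These genes were picked from the overlap of both call lists after their values were seen. Without Svep1, 11 genes were called in both comparisons, in either direction. None of the 11 kept the day 7 against day 3 call in a fit of the 6 arrays alone. With the adipocyte covariate 3 kept it, and without day 3 replicate 2 or 3 only 1 did. None kept the day 1 call with the adipocyte covariate, and 6 did in the 6 arrays alone.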
